A study of Mus musculus with 90 samples.

Results

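The maternal mRNA storage and dormancy genes were followed in single mouse oocytes and embryos with and without maternal Plag1. They were chosen by name, as the 10 genes Ybx2, Zar1, Zar1l, Cpeb1, Dazl, Pabpc1l, Eif4e1b, Eif4enif1, Lsm14b and Ddx6, and the count table held a row for all 10 of them among 24422 genes. The study asked what maternally loaded Plag1, a zinc finger transcription factor, does at zygotic genome activation. MII oocytes (21 to 23 h after hCG, not cultured), 2-cell embryos (2c, 45 to 47 h after fertilization) and 8-cell embryos (8c, 71 to 73 h) came from superovulated CD-1 females, 1 to 3 months old. The embryos were cultured from zygotes, so culture and stage cannot be told apart between MII and later stages. The WT groups came from wildtype females. The matPlag1KO groups came from females lacking both Plag1 alleles, and wildtype males sired the embryos of both groups, so a matPlag1KO embryo is a heterozygote with a functional paternal allele. The deletion is constitutive in the mother, and the labels do not tie an oocyte or embryo to its mother. Collection took place on separate occasions, which the labels do not give either. P-values therefore measure the spread between oocytes or embryos, of which some may share a mother.

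Of 90 libraries, 78 were used: 16 WT and 14 matPlag1KO oocytes, 11 and 11 2c embryos, and 15 and 11 8c embryos. The other 12 had a median under 1 CPM (counts scaled to the library's total) over expressed genes. CPM of markers are on this scale, whereas CPM of members use totals adjusted by TMM. Total gene counts ran from 92475 to 2502421. The 2 most similar libraries of a group still differed by 2.36 times the sampling noise (chi-square per degree of freedom), so none was counted as a copy. Plag1 itself was counted in 16 of 16 WT but 3 of 14 matPlag1KO oocytes, which matches the labels, and at 2c in 1 of 11 WT but 9 of 11 matPlag1KO embryos. All 7 oocyte markers listed (among them Zp3 and Gdf9) had counts at MII, blood markers were at or near 0 in all groups, and 3 of 6 listed 2-cell markers (Tcstv1, Tcstv3 and Zscan4f) were at 0 throughout. Of 11 cumulus or granulosa markers, 5 had counts in WT and 7 in matPlag1KO oocytes. Cyp19a1 was counted in 15 of 16 and 14 of 14 oocytes (169 and 153 counts), while Ptx3, Tnfaip6, Ptgs2 and Foxl2 had none. Amhr2 was counted in 11 of 11 WT and 10 of 11 matPlag1KO 2c embryos. The sperm marker Prm2 was counted in 15 of 16 and 14 of 14 oocytes. The source of these counts was not tested. Libraries of every group were spread over 2 multiplexed pools, A and B. Oocytes of opposite genotype shared a well position between the pools, whereas at 2c the matPlag1KO embryos sat in row D and all but a pair of WT embryos in row C. Row and genotype therefore cannot be told apart at 2c.

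A growing oocyte makes far more mRNA than it translates, and keeps the rest silent in protein-RNA particles until meiosis resumes. Silent messages carry short poly(A) tails and repressor complexes on the cap, and lengthening of the tail releases them. After fertilization most of the stored mRNA is degraded while the embryonic genome takes over. Ybx2 encodes a germ-cell Y-box protein that coats and stabilises stored mRNA. Zar1 and Zar1l encode the zygote arrest proteins, which bind maternal mRNA. CPEB1 binds the cytoplasmic polyadenylation element (CPE), DAZL binds short U-rich sites and promotes translation, and PABPC1L is the poly(A)-binding protein of oocytes. Eif4e1b encodes an oocyte form of the cap-binding protein eIF4E, and Eif4enif1 encodes 4E-T, a repressor that binds eIF4E. LSM14B and the RNA helicase DDX6 are components of repressed particles. DDX6 also acts in processing bodies of somatic cells.

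The regions upstream of the members were compared because several oocyte genes are controlled through E-boxes, the sites of helix-loop-helix factors such as FIGLA. In windows from 250 bases before to 50 bases after the annotated start (mm9), the E-box CANNTG, which reads alike on both strands, stood in 9 of 10 members and in 65.7% of the 16511 tested genes. Ddx6 was the member without one. The 250 bases before the start of Zar1 (chr5:72972324-72972573, minus strand), Eif4e1b (chr13:54885109-54885358, plus strand) and Ddx6 (chr9:44412725-44412974, plus strand) are printed 5′ to 3′ with E-boxes in capitals, since the first pair had the largest genotype differences at 2c and Ddx6 followed another course after 2c.
Zar1: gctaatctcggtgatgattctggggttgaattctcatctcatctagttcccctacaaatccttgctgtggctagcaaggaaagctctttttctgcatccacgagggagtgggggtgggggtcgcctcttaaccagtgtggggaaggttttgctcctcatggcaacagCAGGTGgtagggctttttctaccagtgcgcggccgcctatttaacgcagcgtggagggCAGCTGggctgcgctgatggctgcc
Eif4e1b: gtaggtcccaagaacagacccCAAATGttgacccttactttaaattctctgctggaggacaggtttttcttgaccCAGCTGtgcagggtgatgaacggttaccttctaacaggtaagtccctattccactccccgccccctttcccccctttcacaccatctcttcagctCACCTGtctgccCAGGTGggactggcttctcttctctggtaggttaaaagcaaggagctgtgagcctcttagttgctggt
Ddx6: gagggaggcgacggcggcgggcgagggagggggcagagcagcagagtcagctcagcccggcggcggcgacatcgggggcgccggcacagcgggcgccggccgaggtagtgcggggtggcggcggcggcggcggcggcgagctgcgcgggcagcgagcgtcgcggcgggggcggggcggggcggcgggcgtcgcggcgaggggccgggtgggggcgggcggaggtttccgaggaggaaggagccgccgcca
Zar1 held 2 E-boxes and Eif4e1b held 4. The GC content of the members' 300-base windows ranged from 44.3% in Zar1l to 78.7% in Ddx6, around a median of 59.3% over tested genes, and GC content changes how often such short motifs occur by composition alone.

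Other motifs were less shared. The NOBOX core TAATTG, searched on both strands, stood in 1 of 10 members (Zar1l, with 2 matches) and in 5.1% of tested genes. The PLAG1 consensus, with 7 free bases between its parts and searched on both strands, stood in 1 of 10 members and in 13.7% of tested genes. That member was Pabpc1l, with the match 43 bases before the start and on the minus strand (chr2:163850894-163850923, printed on the plus strand with the match in capitals).
Pabpc1l: tgtttgaACCTGCACCCTGCCTCttctaaa
In the last 200 bases of the gene, on the sense strand, the CPE forms TTTTAT or TTTTAAT stood in 1 of 10 members and in 27.3% of tested genes. The CPE was in Ybx2, 56 bases from the annotated end (chr11:69755034-69755063, plus strand, within an exon, CPE in capitals).
Ybx2: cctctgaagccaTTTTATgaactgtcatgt
The DAZL motif TTGTT stood in the same window of 6 of 10 members, against 35.8% of tested genes. The polyadenylation signal AATAAA or ATTAAA stood in 8 of 10 members, against 80.0%. Messages may end at other sites than the annotated one, and for Zar1l and Dazl the window did not lie within 1 annotated exon of the reference.

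All 10 members were lower in 2c embryos than in MII oocytes. Counts were set against the spike-in RNA added to each library. A value per 1000 spike-in counts then follows the RNA caught by its poly(A) tail in a whole oocyte or embryo. Stored messages have shorter tails than released ones, and the part of tail length in the stage changes was not tested. Embryos were measured whole, so cell number and RNA per cell cannot be told apart. With edgeR's quasi-likelihood test and Benjamini-Hochberg adjustment, 10 of 10 members fell from MII to 2c in WT, where 51.3% of tested genes fell, and 10 of 10 fell in matPlag1KO, where 50.3% fell. The members' median log2 change was -3.60 in WT and -3.58 in matPlag1KO, against medians over all tested genes of -1.46 and -1.42.

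**Figure D1:**
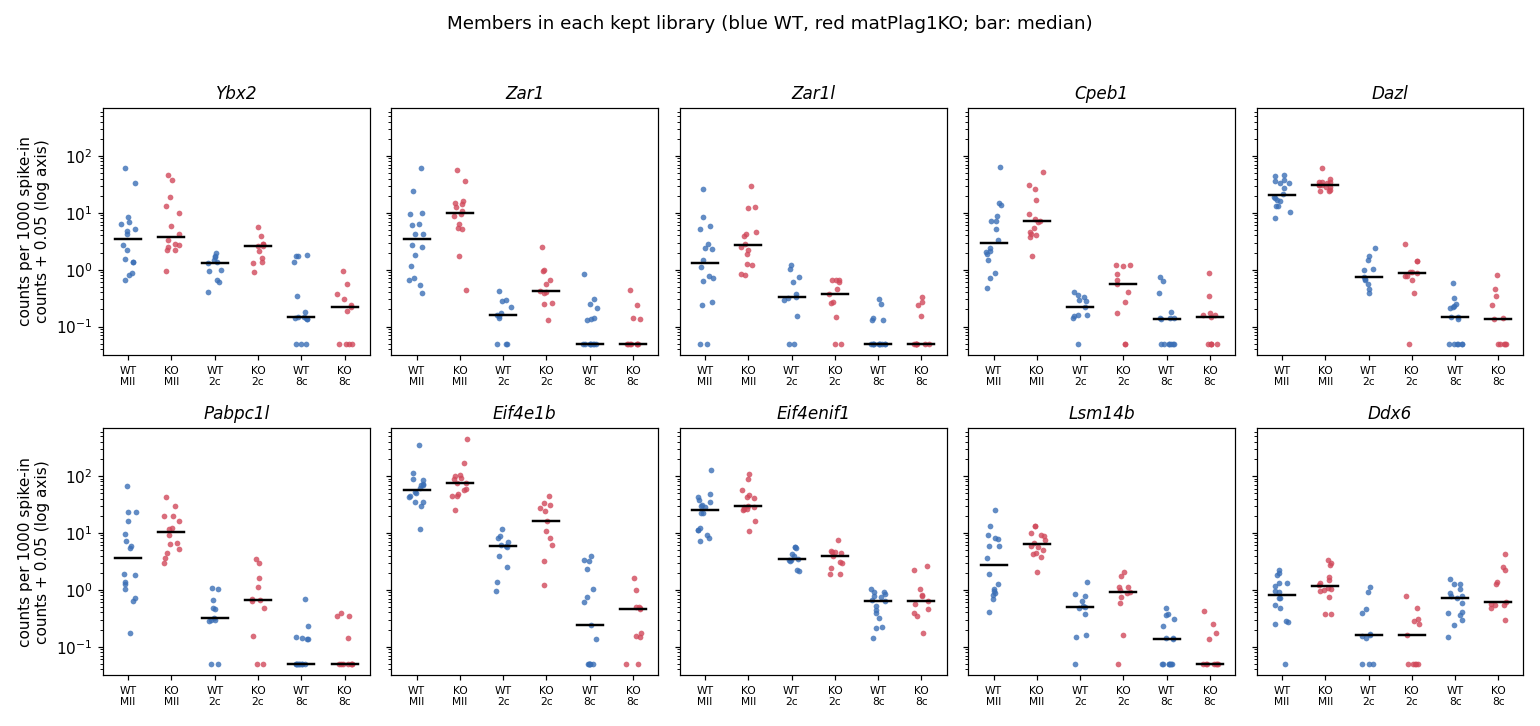
Counts per 1000 spike-in counts (log axis, 0.05 added) of the 10 members in each of the 78 libraries, with 1 point per oocyte or embryo and a bar at the median; the medians of 9 members are highest at MII and lowest at 8c in both genotypes, while that of Ddx6 is lowest at 2c.

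Zar1, the zygote arrest gene, had the largest fall of the members in WT by the fitted log2 change. Its lowest, median and highest values were 0.33, 3.36 and 62.1 counts per 1000 spike-in counts in WT oocytes and 0, 0.11 and 0.38 in WT 2c embryos. The ranges touched through a single low oocyte. The log2 change was -5.88 ± 0.77 (SE), a 58.8-fold fall (adjusted p = 3.63e-10). WT oocyte A-A5, the library with the highest total, held 737 of the 1522 Zar1 counts in WT oocytes. It also held 746 of 1498 for Cpeb1, 736 of 1618 for Ybx2 and 786 of 1832 for Pabpc1l, but 550 of 4079 for Dazl. Stage changes were not refitted with single libraries left out. In matPlag1KO, Zar1 spanned 0.39 to 56.3 with a median of 10.1 in oocytes, and 0.08 to 2.47 with a median of 0.38 in 2c embryos. That change was -4.47 ± 0.69 on the log2 scale. The related Zar1l fell in WT (-3.09 ± 0.68), from a median of 1.24 to 0.28 counts per 1000 spike-in counts, and in matPlag1KO (-4.04 ± 0.72), from 2.63 to 0.33. The ranges of Zar1l in matPlag1KO oocytes (lowest 0.75) and 2c embryos (highest 0.60) did not overlap.

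Cpeb1, whose protein both represses CPE-bearing mRNA and starts its polyadenylation, ranked second by the fitted change, though the medians below fell further for Dazl. WT oocytes spanned 0.44 to 62.9 counts per 1000 spike-in counts with a median of 2.84, and WT 2c embryos spanned 0 to 0.36 with a median of 0.18. Every WT oocyte was above every WT 2c embryo. The log2 change was -5.44 ± 0.74 in WT (adjusted p = 1.04e-09) and -4.48 ± 0.68 in matPlag1KO. Dazl had the smallest adjusted p-values of the group. It spanned 7.93 to 46.4 with a median of 20.2 in WT oocytes and 0.33 to 2.31 with a median of 0.70 in WT 2c embryos, a log2 change of -4.68 ± 0.47 (adjusted p = 1.98e-14). In matPlag1KO, Dazl went from 24.3 to 62.4 with a median of 31.1 in oocytes to 0 to 2.81 with a median of 0.83 at 2c, a log2 change of -5.10 ± 0.49. The oocyte and 2c ranges of Cpeb1 and Dazl were apart in both genotypes.

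Pabpc1l, the oocyte poly(A)-binding protein gene, spanned 0.12 to 66.2 counts per 1000 spike-in counts in WT oocytes, with a median of 3.59, and 0 to 1.03 in WT 2c embryos, with a median of 0.27. Its log2 change was -4.61 ± 0.72 in WT and -3.73 ± 0.68 in matPlag1KO. Ybx2 spanned 0.61 to 62.0 in WT oocytes with a median of 3.38, and 0.36 to 1.88 in WT 2c embryos with a median of 1.27. Its log2 change was -2.95 ± 0.66 in WT and -2.13 ± 0.63 in matPlag1KO. The ranges of both genes overlapped between the stages in both genotypes. For Ybx2, 6 of 16 WT and 8 of 14 matPlag1KO oocytes were no higher than the highest 2c embryo of their genotype, and for Pabpc1l 4 of 16 and 1 of 14 were.

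The genes of the cap-binding factors fell as well. Eif4e1b spanned 11.6 to 348.9 counts per 1000 spike-in counts in WT oocytes with a median of 56.7, and 0.89 to 11.7 in WT 2c embryos with a median of 5.74. In matPlag1KO it spanned 25.2 to 437.3 with a median of 75.5 in oocytes and 1.18 to 44.9 with a median of 16.4 at 2c. The log2 change was -3.75 ± 0.62 in WT (adjusted p = 2.44e-07) and -2.44 ± 0.59 in matPlag1KO (adjusted p = 0.00023). Its binding partner gene Eif4enif1 had non-overlapping oocyte and 2c ranges in both genotypes, with medians of 25.4 and 3.45 in WT and 29.2 and 3.81 in matPlag1KO. The log2 changes of Eif4enif1 were -2.98 ± 0.40 and -3.43 ± 0.42.

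Of the particle components, Lsm14b fell from a median of 2.72 to 0.46 counts per 1000 spike-in counts in WT (log2 change -3.45 ± 0.58) and from 6.25 to 0.86 in matPlag1KO (-2.96 ± 0.56). Ddx6 had the smallest fall of the members in WT, -1.63 ± 0.56 (adjusted p = 0.00831), close to the median of all genes. WT oocytes spanned 0 to 2.16 for Ddx6 with a median of 0.76, and WT 2c embryos spanned 0 to 1.08 with a median of 0.11. In matPlag1KO its log2 change was -2.80 ± 0.59.

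The ranges of oocytes lay wholly above those of 2c embryos for 3 of 10 members in WT (Cpeb1, Dazl and Eif4enif1), against 4.97% of tested genes, and for 4 of 10 in matPlag1KO (the same and Zar1l), against 10.3%. With libraries scaled to their own gene totals (TMM), which measures shares of the mRNA and not amounts, the medians over all genes became -0.03 and 0.14. On that scale Ybx2 (-0.78, adjusted p = 0.156), Zar1l (-1.04, adjusted p = 0.0844) and Ddx6 (-0.38, adjusted p = 0.562) lost their call in WT, and Ybx2 (-0.04), Eif4e1b (-0.53) and Ddx6 (-1.20) in matPlag1KO. In pool B alone, Ybx2 (-1.15), Zar1l (-0.87), Lsm14b (-0.94) and Ddx6 (-1.29) were lower at 2c in WT without passing the test.

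**Figure D2:**
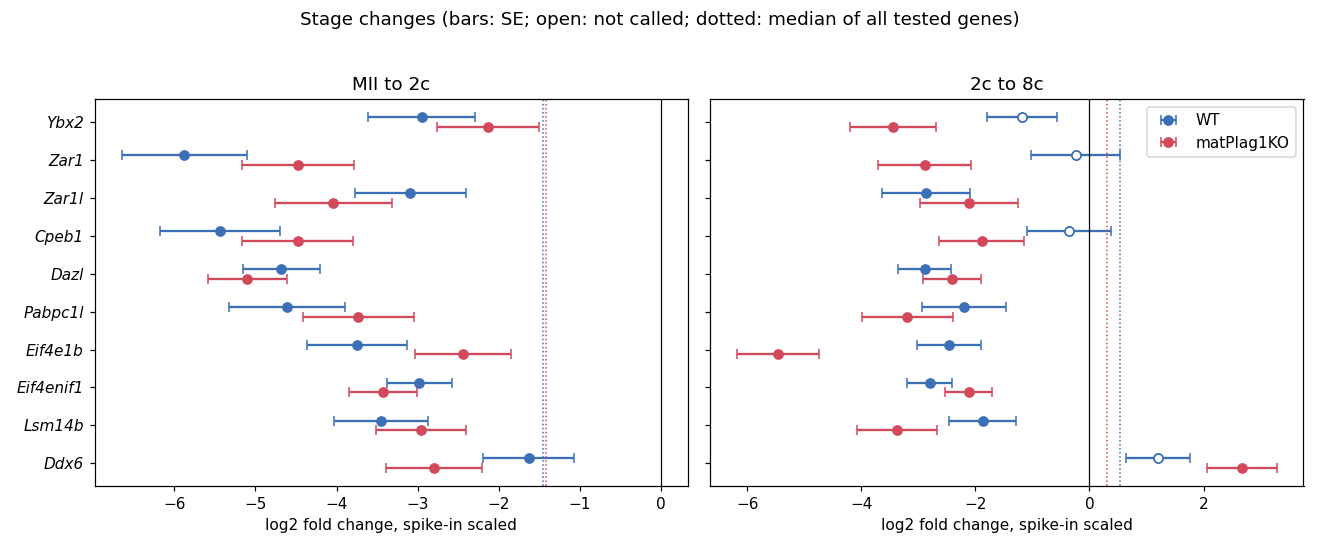
Log2 fold change of each member between MII and 2c (left) and between 2c and 8c (right), scaled to spike-in totals, in WT (blue) and matPlag1KO (red), with bars for the SE, open symbols where the test was not passed and dotted lines at the median of all tested genes; only Ddx6 has positive values from 2c to 8c.

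From 2c to 8c the group parted. In WT, 6 of 10 members fell (16.2% of tested genes fell) and 0 of 10 rose by edgeR's quasi-likelihood test, where 31.9% of tested genes rose. At an unadjusted p under 0.05, 7 of 10 passed, the seventh being Ddx6, which was higher, and 54.1% of tested genes passed in either direction. In matPlag1KO, 9 of 10 fell (19.5% of tested genes) and 1 of 10 rose (29.1%). The members' median log2 change was -2.03 in WT and -2.65 in matPlag1KO, while the medians over all genes were 0.53 and 0.30. The 6 members that fell in WT were Dazl (-2.89 ± 0.47), Zar1l (-2.86 ± 0.77), Eif4enif1 (-2.80 ± 0.39), Eif4e1b (-2.46 ± 0.56), Pabpc1l (-2.20 ± 0.74) and Lsm14b (-1.87 ± 0.59). In pool A alone Zar1l (-2.55, adjusted p = 0.0704), Pabpc1l (-1.75, adjusted p = 0.190) and Lsm14b (-0.62, adjusted p = 0.575) did not pass.

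Zar1 and Cpeb1 were already near the detection limit in WT 2c embryos. Over all 11 WT 2c embryos they had 14 and 19 counts in total, and over 15 WT 8c embryos 19 and 24. Their log2 changes in WT were -0.24 ± 0.78 and -0.36 ± 0.73, and at this depth no further change was detectable. Zar1 had no count in 8 of 15 WT 8c embryos, where a count of 0 allows up to 3 counts. In matPlag1KO, where 11 embryos had 66 and 64 counts of Zar1 and Cpeb1 at 2c, both fell by 8c, with log2 changes of -2.89 ± 0.81 (adjusted p = 0.00205) and -1.89 ± 0.74 (adjusted p = 0.0290). Neither passed in pool A alone (-1.58, adjusted p = 0.183, and -1.47, adjusted p = 0.265), and Cpeb1 did not with all libraries kept (-1.64, adjusted p = 0.0504). The fall of Zar1l in matPlag1KO (-2.11 ± 0.86, adjusted p = 0.0358) was likewise not called with all libraries kept (-1.81, adjusted p = 0.0604) or in either pool alone (adjusted p = 0.211 and 0.0788). Both genes at 8c had 8 and 15 counts over 11 matPlag1KO embryos. Ybx2 changed by -1.18 ± 0.62 in WT (adjusted p = 0.108) and by -3.44 ± 0.75 in matPlag1KO (adjusted p = 8.71e-05). With TMM on gene counts the WT change of Ybx2 was -2.15 ± 0.50 (adjusted p = 0.000167), where the median over all genes was -0.12. For Ybx2, 4 of 15 WT 8c embryos lay above the WT 2c median of 1.27 counts per 1000 spike-in counts, while the WT 8c median was 0.10.

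Ddx6, the helicase that somatic cells also use, was the exception. It spanned 0.10 to 1.47 counts per 1000 spike-in counts with a median of 0.68 in WT 8c embryos, where all 15 embryos had a count, against 8 of 11 WT 2c embryos. Its log2 change was 1.20 ± 0.56 (adjusted p = 0.0677). With all libraries kept it became 1.34 (adjusted p = 0.0371) and by DESeq2 1.24 (adjusted p = 0.0413). In matPlag1KO, Ddx6 spanned 0 to 0.74 with a median of 0.11 at 2c and 0.25 to 4.17 with a median of 0.56 at 8c, and rose by 2.67 ± 0.61 on the log2 scale (adjusted p = 0.000166). In pool A alone that difference was 1.95 (adjusted p = 0.102). The counts behind the rise were 22 at 2c and 135 at 8c, of which embryo A-F5 alone held 45.

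By 8c most members were near the detection limit. Median values were 0 counts for Zar1, Zar1l and Pabpc1l in both genotypes and for Lsm14b in matPlag1KO. Eif4enif1, which has roles beyond the oocyte, was counted in all 15 WT and all 11 matPlag1KO 8c embryos, at medians of 13.8 and 15.3 CPM. Eif4e1b was uneven at 8c, with a lowest, median and highest level of 0, 6.29 and 104.1 CPM in WT and 0, 7.21 and 51.2 CPM in matPlag1KO. The summed oocyte markers fell alongside, with medians of 6223 and 14600 CPM in WT and matPlag1KO oocytes, 3921 and 5984 CPM at 2c, and 58.2 and 91.4 CPM at 8c, and their part in the members' values was not tested.

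Between the genotypes, 0 of 10 members were called by edgeR at MII, 2c or 8c, where 0.781%, 4.92% and 1.74% of tested genes were called. At an unadjusted p under 0.05, 0 members passed at MII, 3 at 2c (Zar1, Eif4e1b and Cpeb1, all higher in matPlag1KO) and 2 at 8c (Eif4e1b lower, Eif4enif1 higher), where 10.2%, 20.5% and 14.3% of tested genes did. DESeq2 called 2 members at 2c, where it called 733 of 16511 tested genes higher and 401 lower. It called 0 members at MII (32 genes higher, 48 lower) and at 8c (266 higher, 81 lower).

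**Figure D3:**
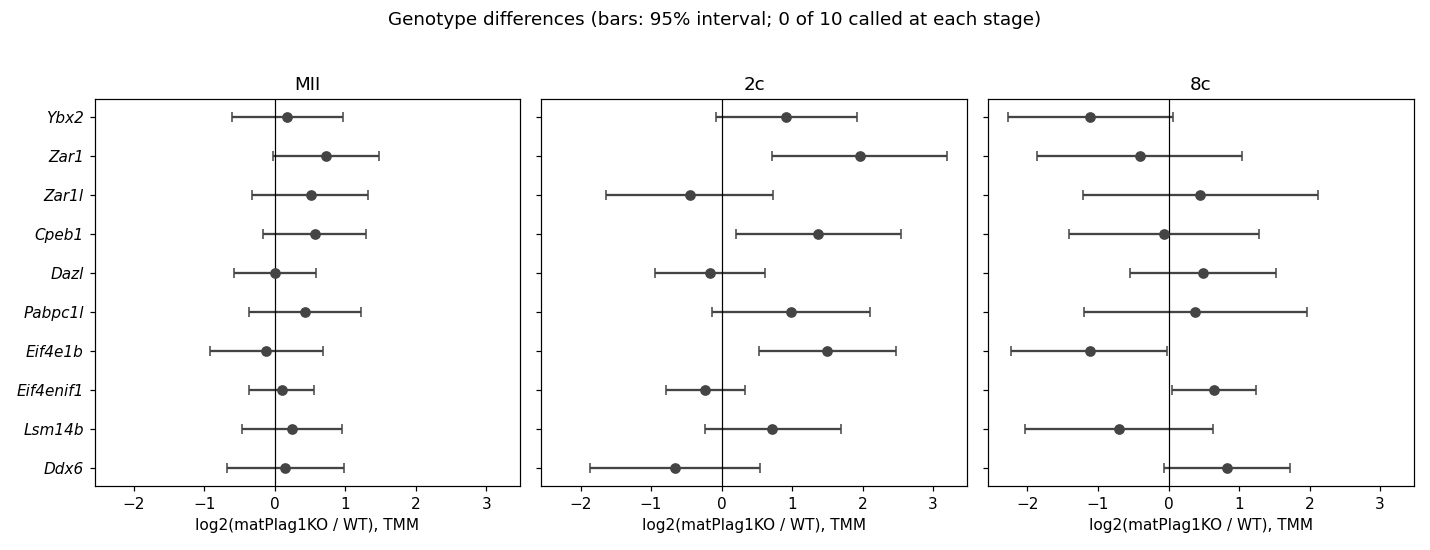
Log2 ratio of matPlag1KO to WT for each member at MII, 2c and 8c (TMM-scaled), with bars for the 95% interval; the widest departures from 0 at 2c are Zar1 at 1.96 and Eif4e1b at 1.5.

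At 2c, Zar1 spanned 0 to 18.2 CPM with a median of 5.74 in 11 WT embryos and 3.25 to 89.7 CPM with a median of 23.1 in 11 matPlag1KO embryos. Embryos with a count numbered 8 of 11 in WT and 11 of 11 in matPlag1KO, of which 7 exceeded the highest WT embryo. The log2 difference was 1.96 ± 0.64, or 3.88-fold (95% interval 0.71 to 3.20 on the log2 scale, adjusted p = 0.0523). The counts behind it were low, 14 against 66 in all. Without matPlag1KO embryo B-D6, which alone held 22 of them, it was 1.56 (adjusted p = 0.154). In pool A alone it was 1.21 (adjusted p = 0.662) and in pool B alone 2.29 (adjusted p = 0.0898).

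Eif4e1b rested on more counts, 601 in WT and 2103 in matPlag1KO 2c embryos. WT embryos spanned 45.0 to 666.5 CPM with a median of 262.1, and matPlag1KO embryos 73.6 to 1836 CPM with a median of 878.2. Groups overlapped, with 6 of 11 matPlag1KO embryos above the highest WT embryo. The log2 difference was 1.5 ± 0.50, or 2.83-fold (95% interval 0.53 to 2.47, adjusted p = 0.0578). It was 1.04 (adjusted p = 0.668) in pool A alone and 1.77 (adjusted p = 0.0243) in pool B alone. With DESeq2's median-ratio factors in edgeR, Zar1 (2.14, adjusted p = 0.0309) and Eif4e1b (1.74, adjusted p = 0.0259) both passed. Each also passed in 5 of 22 fits that left out 1 of the 2c embryos, over which the adjusted p ran from 0.0408 to 0.154 and from 0.0316 to 0.123. For Zar1 these were the fits without WT embryo B-C2 (2.24, adjusted p = 0.0428) and without matPlag1KO embryos A-D2, A-D6, A-D8 or B-D4 (2.01 to 2.09). For Eif4e1b they were the fits without WT embryos A-D4 or B-C5 and without matPlag1KO embryos A-D6, A-D8 or B-D5 (1.58 to 1.69).

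Members did not all lean the same way. Higher values in matPlag1KO at 2c, none of them called, were also seen for Cpeb1 (1.37 ± 0.59), Pabpc1l (0.98 ± 0.57), Ybx2 (0.92 ± 0.51) and Lsm14b (0.72 ± 0.49). Ddx6 (-0.66 ± 0.62), Zar1l (-0.45 ± 0.61), Eif4enif1 (-0.23 ± 0.28) and Dazl (-0.17 ± 0.40) had values below 0. The interval of Eif4enif1, the most evenly measured member, was -0.79 to 0.33, and that of Dazl was -0.95 to 0.61. The median over members was 0.82 against 0.12 over all genes. The split of all called genes depended on the scaling, with 379 higher and 433 lower by TMM, 721 and 273 by median-ratio factors and 191 and 94 by spike-in totals.

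At 8c, Eif4e1b (-1.12 ± 0.56, adjusted p = 0.346) and Ybx2 (-1.11 ± 0.60) had the lowest log2 differences and Ddx6 (0.83 ± 0.46) and Eif4enif1 (0.65 ± 0.30, adjusted p = 0.307) the highest. Without well F5 the difference of Ddx6 was 0.28. Well columns differed between the genotypes at 8c, so column and genotype cannot be told apart there. All genes called at 8c were 200 higher and 87 lower by TMM, and 238 and 57 by median-ratio factors or 91 and 15 by spike-in totals.

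Whether the genotype difference itself changed with stage was tested as an interaction. Between 2c and MII, 0 of 10 members were called (3.31% of tested genes). At an unadjusted p under 0.05, 1 of 10 passed, against 17.7% of tested genes. That member was Eif4e1b at 1.61 ± 0.64 (adjusted p = 0.150). Between 2c and 8c, 1 of 10 was called (2.3% of tested genes). This was Eif4e1b, whose log2 difference was 2.62 ± 0.75 larger at 2c than at 8c (adjusted p = 0.0379). Ybx2 (2.03 ± 0.78) and Zar1 (2.36 ± 1.01) followed with adjusted p-values of 0.137 and 0.188. With spike-in totals as library sizes the Eif4e1b value was 2.99 (adjusted p = 0.0731).

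The 8c side of this interaction rested on few wells. Of the 172 Eif4e1b counts in WT 8c embryos, 143 came from wells F3 and F4 of both pools, which held 74 and 69. Same-well 8c embryos of the pools, which were of 1 genotype, deviated together from their group and pool means, with r over 0.1 in 12 of 12 wells (0.104 to 0.416). From group means alone this held in 7 of 12 wells (lowest 0.003). Pairs from different wells were not compared, so same-well embryos may not be independent, but this was not tested. With the 8c libraries of a well summed to 1 (8 WT and 6 matPlag1KO wells), Eif4e1b was no longer called, at 2.53 ± 0.82 (adjusted p = 0.114). Nor was it without well F3 (2.12, adjusted p = 0.120) or well F4 (2.05, adjusted p = 0.118), and it passed in 7 of 14 fits that left out 1 well. With 1 embryo left out it passed in 32 of 48 fits (2.27 to 3.19, adjusted p from 0.0155 to 0.0757). The 16 embryos without which it did not pass were WT A-D5, B-C3 and B-C4 and matPlag1KO A-D1, A-D2 and B-D2 at 2c, and WT A-F3, A-F4, B-F3 and B-F4 and matPlag1KO A-E7, A-E8, A-F5, A-F6, B-E5 and B-F6 at 8c. The medians of Eif4e1b at 8c, 6.29 and 7.21 CPM, were not lower in matPlag1KO.

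**Figure D4:**
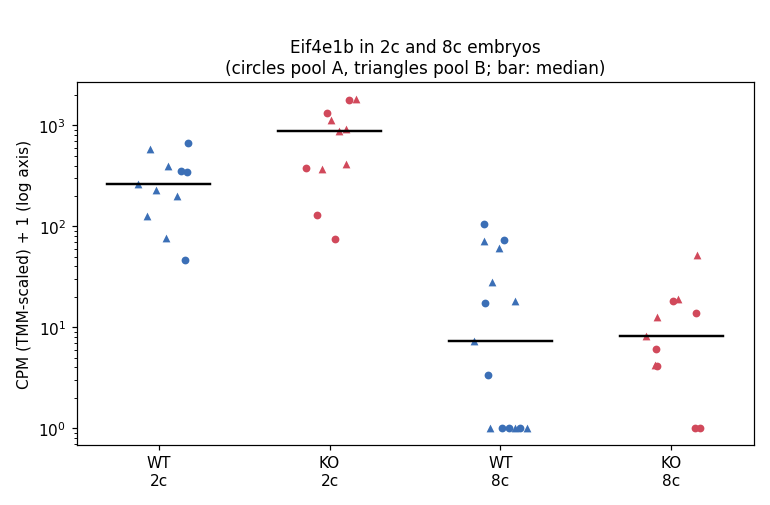
Eif4e1b in CPM (log axis, 1 added) in each 2c and 8c embryo, with circles for pool A, triangles for pool B and bars at the median; medians are 262.1 and 878.2 CPM in WT and matPlag1KO at 2c, and 6.29 and 7.21 CPM at 8c.

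In oocytes of either genotype the members differed widely between single oocytes. Coefficients of variation in WT oocytes ran from 35.0% for Eif4enif1 and 45.1% for Dazl to 91.9% for Ybx2 and 109.3% for Zar1l. Eif4e1b had medians of 1168 and 1087 CPM in WT and matPlag1KO oocytes, and a log2 difference of -0.12 ± 0.41. Dazl had medians of 478.0 and 481.4 CPM and a difference of 0.01 ± 0.29 (95% interval -0.57 to 0.58). Zar1 had medians of 82.0 and 152.5 CPM and a difference of 0.73 ± 0.38 (adjusted p = 0.528). By spike-in totals all genes shifted up by a median of 0.30, with 97 genes called higher and 40 lower, against 51 and 78 by TMM. The median of the summed oocyte markers was also higher in matPlag1KO oocytes, with overlapping ranges, and the median of Gdf9, an oocyte growth factor gene, was 637.4 CPM in WT and 3998 CPM in matPlag1KO. Over all oocytes together, however, Gdf9 had alike shares, 41725 of 10051429 counts in WT and 46099 of 11127669 in matPlag1KO. No test of Gdf9 is reported here.

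For several members the WT oocytes of the pools lay apart, and whether this differed from matPlag1KO oocytes was not tested. Lsm14b averaged 121.8 ± 35.0 CPM (SD, n = 8) in WT oocytes of pool A and 27.9 ± 16.9 (SD, n = 8) in those of pool B, without overlap. The matPlag1KO oocytes averaged 94.3 ± 19.9 (SD, n = 7) and 85.2 ± 29.2 (SD, n = 7). Pabpc1l averaged 196.2 and 41.1 CPM in WT oocytes of pools A and B, and 185.6 and 138.8 in matPlag1KO oocytes. Zar1 averaged 141.9 and 46.2 CPM in WT and 118.6 and 197.9 in matPlag1KO. Within pool B alone, Zar1 (2.08, adjusted p = 0.0159) and Pabpc1l (1.71, adjusted p = 0.0407) were called higher in matPlag1KO. Within pool A alone the same differences were -0.26 (adjusted p = 0.917) and -0.07 (adjusted p = 1). Within a pool the genotypes occupied different rows, so row and genotype cannot be told apart there. The pool means of Dazl lay between 412.2 and 536.6 CPM and those of Eif4enif1 between 455.0 and 550.5 CPM.

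**Figure D5:**
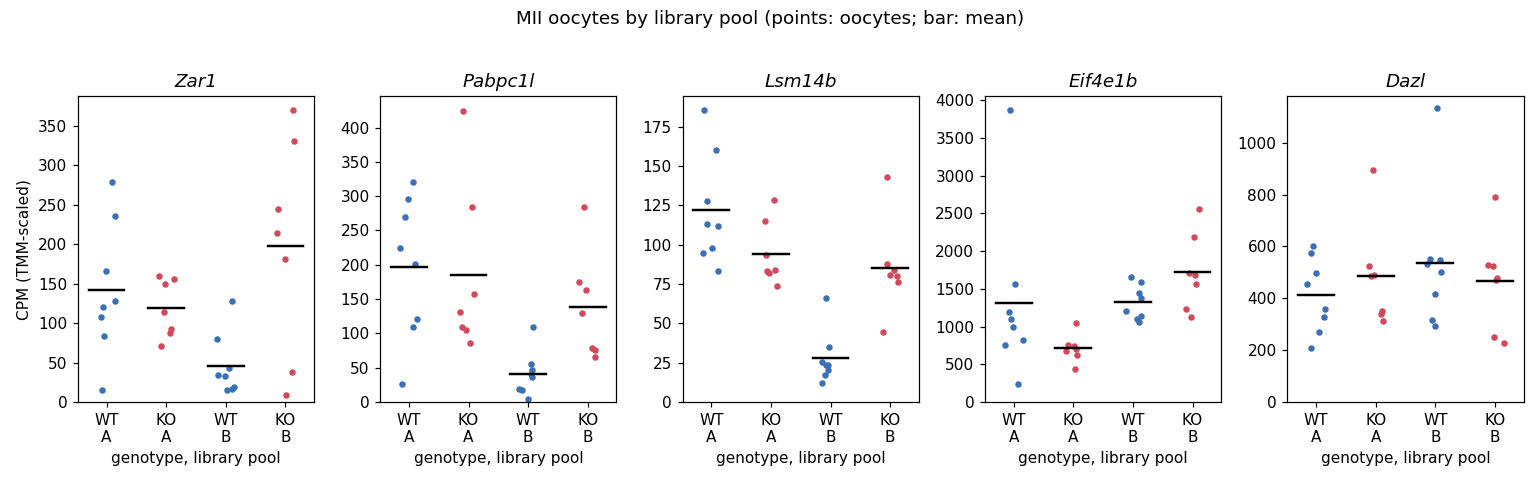
CPM of 5 members in each MII oocyte by genotype and pool, with bars at the mean; the means of WT oocytes are lower in pool B than in pool A for Lsm14b (27.9 and 121.8), Pabpc1l (41.1 and 196.2) and Zar1 (46.2 and 141.9), with ranges apart for Lsm14b alone, but not for Eif4e1b or Dazl.

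Oocytes in the same well of the 2 pools deviated together from their group and pool means, with r over 0.1 in 14 of 14 wells (lowest 0.148), and each such well held 1 oocyte of each genotype. In the fit of oocytes with the well as a block and the pool as a term, 4 of 10 members were higher in matPlag1KO, where 3.99% of tested genes were called higher. These were Zar1 (0.93 ± 0.17, adjusted p = 1.09e-05), Pabpc1l (0.79 ± 0.17, adjusted p = 0.000138), Cpeb1 (0.62 ± 0.17, adjusted p = 0.00817) and Lsm14b (0.61 ± 0.19, adjusted p = 0.0272). Lsm14b was not called in the blocked fit with median-ratio factors (0.56, adjusted p = 0.0547) or by limma-voom (0.59, adjusted p = 0.0584). Dazl (-0.02 ± 0.12), Eif4e1b (0.00 ± 0.10) and Eif4enif1 (0.10 ± 0.12) stayed near 0. The blocked fit called 809 genes, 658 higher and 151 lower, against 129 without the block. It does not model a difference between pools that holds for WT oocytes alone, as seen for Lsm14b and Pabpc1l.

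Members varied together only in part. Over the 45 pairs of members, Pearson's r of log2(CPM + 1) had a median of 0.06 in WT oocytes and ran from -0.65 to 0.83, without a p-value since oocytes share pools and depth. The highest were Pabpc1l with Lsm14b (0.83) and with Zar1 (0.80). The lowest was Zar1l with Ddx6 (-0.65). In 11 WT 2c embryos the highest was Pabpc1l with Eif4e1b (0.87) and the median 0.22. Ybx2, Zar1, Zar1l, Cpeb1 and Pabpc1l also went with library depth in WT oocytes, at r of 0.62 to 0.69 with the log2 total count, whereas Dazl went against it at -0.42, and in matPlag1KO oocytes at -0.79. Across all 78 libraries, where r reflects mainly the stages, the gene most like Eif4e1b was Gm1965 (0.936), followed by the oocyte growth factor gene Bmp15 (0.930). For Eif4enif1 it was Obox5 (0.937), for Zar1 Ccno (0.871), for Ybx2 Dusp7 (0.864), for Pabpc1l Scn10a (0.868), for Lsm14b Lrrc17 (0.865), for Cpeb1 Piwil1 (0.849) and for Zar1l Paqr6 (0.790). Ddx6 had no close match, the highest being Cdc25a at 0.544. Over 10840 genes, the member most like another was Eif4enif1 for Dazl (0.904).

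The 12 listed paralogues of the members, most of them used in many cell types, were mixed. From MII to 2c in WT, 7 of 12 fell and 1 rose, where 51.3% of tested genes fell and 14.1% rose, and from 2c to 8c 2 fell and 6 rose, where 16.2% fell and 31.9% rose. The median log2 changes were -1.13 and 1.01, against -1.46 and 0.53 over all genes. Pabpc1, the general poly(A)-binding protein gene, rose by 3.52 ± 0.47 on the log2 scale from MII to 2c and by 2.11 ± 0.46 from 2c to 8c, while Pabpc1l fell at both steps. Ybx1 fell by 1.25 ± 0.39 and then rose by 2.41 ± 0.42. Eif4e fell by 1.01 ± 0.34 and then rose by 1.10 ± 0.34, and Eif4e2 rose by 3.54 ± 0.42 from 2c to 8c. Eif4e3 and Lsm14a fell at both steps (-3.62 and -2.80, and -1.55 and -3.32). In matPlag1KO the same steps lowered 7 and 3 paralogues and raised 2 and 4. Of all tested genes, 50.3% and 19.5% fell there and 13.5% and 29.1% rose. Between the genotypes at 2c, 2 of 12 were called (4.92% of tested genes), both higher in matPlag1KO. They were Cpeb2 (2.49 ± 0.73, adjusted p = 0.0319) and Eif4e3 (1.19 ± 0.38, adjusted p = 0.0486). None was called at MII or 8c, where 0.781% and 1.74% of tested genes were called.

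Among 35 partners and other factors of storage, repression and polyadenylation, the step from MII to 2c lowered 20 and raised 2 in WT, against 22 and 1 in matPlag1KO. Over all tested genes 51.3% and 50.3% were lowered and 14.1% and 13.5% raised, so the shares lowered were near the background. Pabpn1l, a nuclear-type poly(A)-binding protein gene of oocytes, fell most, with log2 changes of -6.43 ± 0.75 in WT and -7.26 ± 0.77 in matPlag1KO. Paip1, which binds poly(A)-binding protein, had changes of -4.78 ± 0.52 and -3.55 ± 0.48, and Patl2, whose protein is related to the DDX6 partner PATL1, of -3.10 ± 0.50 and -3.47 ± 0.51. Between 2c and 8c, 5 were lower and 9 higher in WT, against 8 and 5 in matPlag1KO, where 16.2% and 19.5% of tested genes fell and 31.9% and 29.1% rose. The cleavage factor gene Cpsf3 rose by 2.80 ± 0.57 and 2.84 ± 0.59, and Elavl2, for an RNA-binding protein of oocytes and neurons, fell (-3.44 ± 0.55 and -3.78 ± 0.61). Between the genotypes at 2c, Paip1 (1.40 ± 0.44, adjusted p = 0.0429) and Samd4 (3.87 ± 1.19, adjusted p = 0.0425) were called higher in matPlag1KO and 0 lower, 2 of 35 against 4.92% of tested genes. At 8c Cpsf2 was called lower (-1.54 ± 0.40, adjusted p = 0.0263), and at MII 0 of 35 were called. Of all tested genes, 1.74% were called at 8c and 0.781% at MII.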

How the data were processed

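Single oocytes and embryos were profiled by a 5′-end RNA-seq protocol with unique molecular identifiers, primed on poly(A) tails, in 2 pools of barcoded libraries. The authors removed duplicate molecules, mapped reads to mm9 with TopHat and counted them per UCSC gene and spike-in with HOMER (HOMER and mm9 also per the submitters' processing notes). Versions and the treatment of reads that map to several genes or to either strand are not given in the sources used here. The deposited values are raw counts.

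Libraries with a median under 1 CPM were left out (12 of 90), and genes with 1 CPM in at least 5 of the other libraries were tested (16511, all 10 members included). edgeR 4.0.16 (R 4.3.3) fitted all 6 groups together with the quasi-likelihood test, on TMM library sizes for genotype differences and interactions and on spike-in totals for stage changes. A call is a Benjamini-Hochberg adjusted p under 0.05. Errors of log2 changes are SE from the test statistic, and intervals are 95%. Alternatives used DESeq2 1.42.0, limma 3.58.1, other scalings, pools, filters and left-out libraries. Single libraries were left out in turn for genotype differences and interactions only. The fits of the 2c genotype difference and of the WT change from MII to 2c were run on simulated data. Those data had independent libraries without pool or well effects, and their outcome is not reported here. The blocked fit, the interactions and the 8c comparison were not simulated. Well pairing was judged on deviations from group and pool means over genes with 10 CPM or more. From group means alone, 12 of 14 oocyte wells and 7 of 12 8c wells exceeded r = 0.1. Pairs from different wells were not compared. The members, gene lists (12 paralogues, 35 partners, markers) and tests were chosen with earlier results of these data known. Members and listed genes called at 2c or most changed between stages were named, with Plag1 and the gene of highest r for each member, except that of Dazl, which is not reported here. Sequences come from the mm9 reference, read with pysam 0.24.0. No protein sequence was used here.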

Additional observations from a re-analysis of the deposited data

Results flagged for a closer look

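The genotype difference of Eif4e1b differed between 2c and 8c by 2.62 on the log2 scale (edgeR interaction test, adjusted p = 0.0379). It was 1.5 at 2c and -1.12 at 8c, neither of them called alone. At 8c the gene had 172 counts over 15 WT embryos and 43 over 11 matPlag1KO embryos, and it had no count in several of them. Summing the 8c libraries that shared a well gave 2.53 (adjusted p = 0.114).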

How the results depend on the processing

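Counts of called members and genes moved by over 1.5 times in a minority of settings. At MII, DESeq2 called 80 genes and pool B alone 463, with 2 members among them. The well as a replicate block, with the pool as a term, called 4 members and 809 genes by TMM. In that blocked fit, settings chosen after seeing the data gave 7 members and 2451 genes (2408 higher, 43 lower) with spike-in totals, 3 and 761 with median-ratio factors, and 3 and 763 with limma-voom. Spike-in totals added Zar1l (1.03, adjusted p = 0.000898), Eif4enif1 (0.5, adjusted p = 0.0151) and Eif4e1b, and both other settings lost Lsm14b. Eif4e1b was -0.12 without the block, 0.00 with it and 0.4 (adjusted p = 0.0327) with block and spike-in totals, where all genes shifted up by a median of 0.39. Leaving out single oocytes gave 82 (without WT oocyte B-B2) to 150 genes.

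At 2c, 2 members were called with median-ratio factors (721 genes higher, 273 lower) and 2 by DESeq2 (733 higher, 401 lower). With the pool as a term 1 was called (Zar1, adjusted p = 0.0499), where 403 genes were called higher and 484 lower. In pool B alone 1 was called, where 502 genes were called. Spike-in totals called 285 genes, and pool A alone 0 by edgeR, with 1339 at an unadjusted p under 0.05. Single embryos left out gave 0 to 2 members and 443 (without WT embryo A-D5) to 1127 genes. At 8c, 106 genes were called with spike-in totals, 6 in pool A alone and 46 in pool B alone, and 177 (without WT embryo A-F4) to 306 with single embryos left out, with 0 members called in each. Settings chosen after seeing the data called 27 genes at 8c with the libraries of a well summed, and 172 (without well E5) to 310 with single wells left out, with 0 members.

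From MII to 2c in WT, pool B alone called 6 members and 6961 genes. From 2c to 8c, pool A alone called 3 members and 4026 genes in WT, and 6 members and 4306 genes in matPlag1KO. Interactions by spike-in totals called 312 genes for 2c against MII, and 0 members and 92 genes for 2c against 8c. Also chosen after seeing the data, the latter gave 0 members and 90 genes with 8c wells summed, 0 to 1 members and 223 (without well F3) to 518 genes with single wells left out, and 0 to 1 and 280 to 543 with single embryos left out. For 2c against MII, single left-out libraries gave 0 members and 382 to 725 genes. The causes were not tested, but a single pool holds fewer libraries. Of the members' single values under alternatives, 1175 genotype differences, 1205 interactions and 256 stage changes kept their side of the threshold. With an unchanged sign, 34 genotype differences and 3 stage changes gained a call, and 25 interactions and 21 stage changes lost it. A further 1 genotype difference, Eif4e1b at MII with block and spike-in totals, gained a call with its sign reversed. Most of the genotype and interaction values came from fits that left out 1 library or 8c well. Depth limits Zar1, Zar1l, Cpeb1, Pabpc1l and Ddx6 at 2c and 8c, where a library held few counts of each. At 8c it also limits Dazl, Lsm14b, Ybx2 and Eif4e1b, with median counts of 1, 1, 1 and 3 per WT library. In matPlag1KO 8c libraries these medians were 1, 0, 2 and 3.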
